A study of Mus musculus with 12 samples.

Results

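The Pgr locus was examined for binding of the estrogen receptor ERα and of the progesterone receptor PR, which Pgr itself encodes, in mouse mammary gland. Its members were all deposited peaks with a summit within 50 kb of the span of Pgr, which RefSeq places on chromosome 9 from 8898900 to 8968611 (69712 bp, plus strand, mm10). Of 741142 peaks in 8 lists, 89 met this rule, 47 of them from ERα and 42 from PR. Chromatin came from fixed whole mammary glands of mice raised to 8 weeks of age, implanted with E2 (estradiol) and P4 (progesterone) and sampled 4 days later, and was precipitated with an antibody against ERα or against PR. The groups were mice with wild-type Esr1 (WT) and mice with the Y541S mutation of Esr1, the gene of ERα. All groups received both hormones, so no group without hormone was compared. There were 2 replicates for each receptor and genotype, described as biological, with the number of animals in each not given. The D542G samples were not analysed here. The series title speaks of luminal cells and the sample labels of whole glands. A peak list does not show which cells were bound, and binding in more cells cannot be told apart from stronger binding per cell.

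ERα and PR are ligand-activated transcription factors of the nuclear receptor family. Estrogen acting through ERα induces Pgr in many target tissues, and in the mammary epithelium the presence of PR is commonly read as a sign of active ERα. PR bound to progesterone in turn drives side branching and, through secreted signals, the growth of neighbouring cells. The locus therefore shows ERα at a classical target gene, and PR at its own gene.

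The promoter sequence of Pgr, 250 bases before to 50 bases after the start site at 8899833, is shown because summits of PR peaks in all 4 PR lists lay just beyond it. It comes from RefSeq (GRCm38.p6, the assembly of mm10) and lies at chr9:8899583-8899882 on the plus strand. The start site used here lies 933 bp inside the RefSeq span of Pgr, and distances from the start are counted from that site. Capitals mark the GC box GGGCGG, the only match among 4 motifs searched on both strands.
Pgr promoter: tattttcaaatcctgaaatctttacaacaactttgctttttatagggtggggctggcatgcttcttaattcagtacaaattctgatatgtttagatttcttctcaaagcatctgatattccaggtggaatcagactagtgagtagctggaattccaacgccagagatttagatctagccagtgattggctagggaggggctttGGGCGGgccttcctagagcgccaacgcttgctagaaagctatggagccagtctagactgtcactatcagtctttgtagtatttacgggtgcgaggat
The full estrogen response element (GGTCA, any 3 bases, TGACC) had 0 matches here and occurred in 0.0701% of 32817 promoters of the same length. Its arm GGTCA, which is part of the full element, also had 0 matches and occurred in 40.5% of promoters. A form of the element bound by PR and related steroid receptors (GNACA, any 3 bases, TGTNC) had 0 matches and occurred in 0.475%. The GC box, which was added to the search after the sequence was seen, starts at base 204 of the sequence and occurred in 35.6%. These are matches of letters in a window of 300 bases, which held 6 CpG dinucleotides against a median of 7 over all promoters. No genome sequence was used, so the letters under the other peaks are not shown. Of the 89 peaks, 1 overlapped this window, a PR peak of WT replicate 2 whose summit lay beyond it.

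ERα peaks of the first order stood at 3 places at Pgr, in all 4 ERα lists, and none of them was at the promoter. The strongest lay just beyond the end of the gene (chromosome 9, 8970080 to 8970942), with summits 70.7 kb after the start site and 1.90 kb after the gene's end. Its peak ranked 125 and 104 by −log10 p in the lists of WT replicate 1 and replicate 2, and 57 and 69 in those of Y541S. These ranks correspond to the first 0.172% and 0.161% of the WT lists and 0.0533% and 0.0653% of the Y541S lists. Lists differed in length, so the ranks describe a position within each list and no change between genotypes.

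At this summit the deposited fold enrichment, the coverage of reads over the local expectation, was 13.6 and 13.96 in WT and 15.7 and 16.4 in Y541S, and −log10 p was 168 and 87.6 in WT and 202 and 137 in Y541S. The coverage recovered from these values was 218 and 107 reads in WT and 244 and 158 in Y541S, against local expectations of 15.1 and 6.73, and 14.6 and 8.71. The expectation was itself raised here, at 6.31 and 5.17 times the background of the library in WT and 6.38 and 5.08 times in Y541S, so the fold is smaller than coverage over background would be. Divided by the background, coverage was 91.3 and 82.1 in WT (mean 86.7 ± 6.50, SD, n = 2) and 107 and 92.1 in Y541S (99.4 ± 10.3). The WT values were the lower ones, the closest pair being 91.3 and 92.1, and the difference of 12.6 was similar to the spread of the replicates.

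The second ERα region lay within Pgr, 38.0 kb after the start site (8937525 to 8938212). Exons and introns were not separated, since the gene table used holds no transcripts. Its ranks were 1078 and 941 in WT and 1030 and 745 in Y541S, with fold enrichments of 14.8 and 10.3, and 13.4 and 12.5. Coverage at the summit was 57, 25, 57 and 40 reads in WT replicates 1 and 2 and Y541S replicates 1 and 2. The local expectation here was 1.52 to 3.33 reads, far less than at the region beyond the gene, so a similar fold came from fewer reads.

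A further strong ERα region lay 4.32 kb beyond the gene's end (8972749 to 8973113), near the first. It ranked 979 and 1435 in WT and 832 and 2972 in Y541S. Fold enrichments were only 7.01 and 5.06 in WT and 7.42 and 4.54 in Y541S, although coverage reached 111 and 37 reads, and 113 and 44. This region and the one within the gene had overlapping ranges of ranks, and both were below the strongest in every ERα list. In Y541S replicate 1 a further, weak ERα peak stood between the 2 regions beyond the gene, with 35 reads and rank 36822.

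The remaining region in all 4 ERα lists was of another order. It lay 35.2 kb beyond the end of Pgr (9003313 to 9003946), inside the span of the neighbouring gene Arhgap42, which is transcribed towards Pgr from the minus strand. It ranked 11203 and 9672 in WT and 50533 and 6925 in Y541S, with 18, 11, 12 and 18 reads at the summit. Arhgap42 begins its span 23.9 kb from Pgr and was the only other coding gene in the window. Nothing in a peak list assigns these regions to Pgr rather than to Arhgap42.

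**Figure D1:**
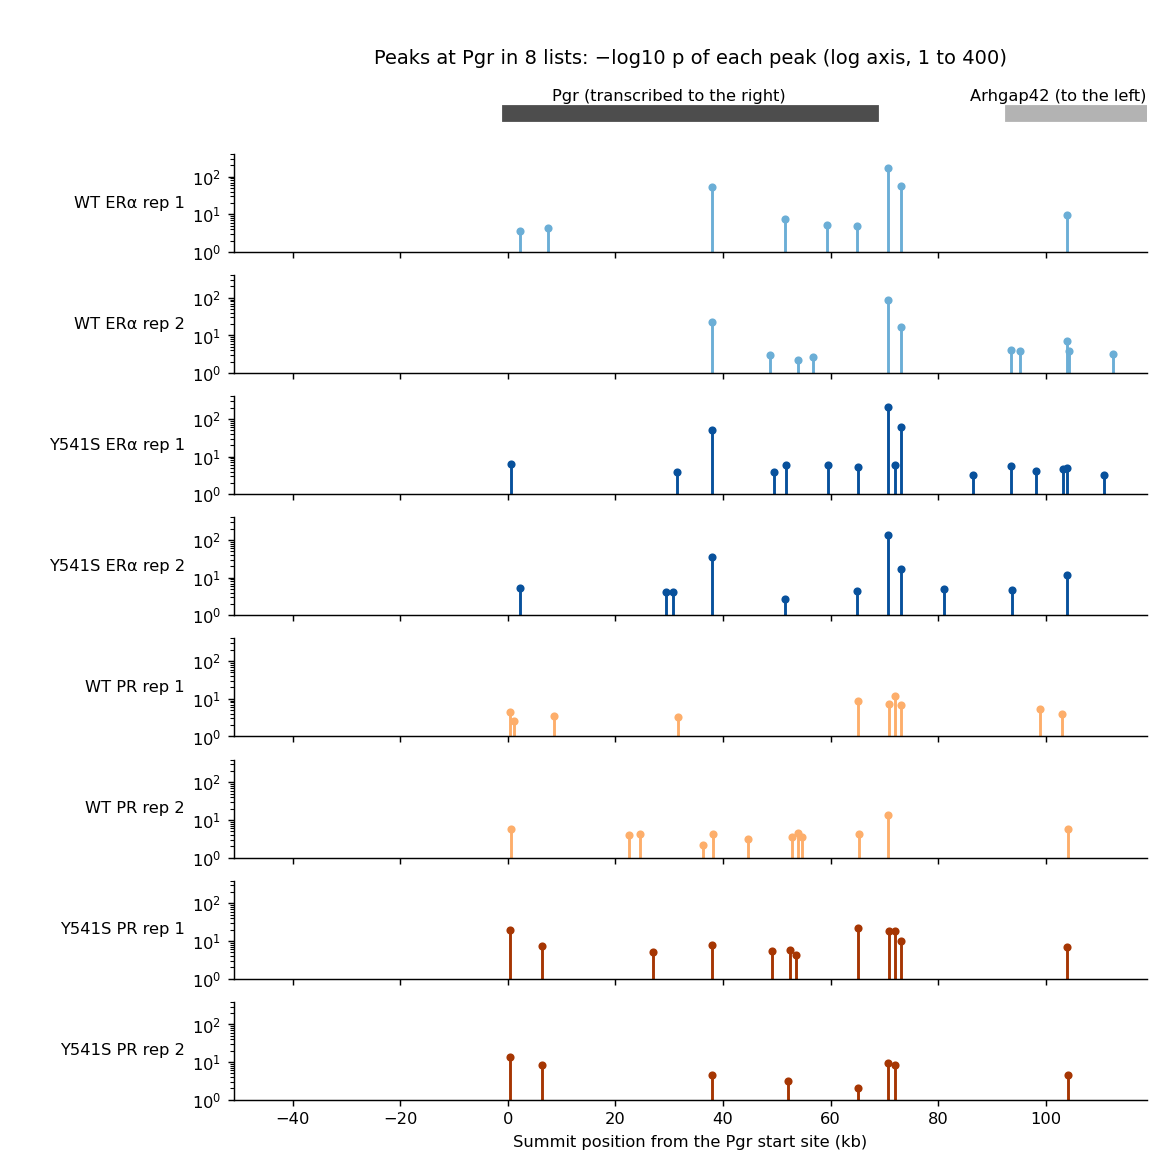
Peaks at Pgr in each of the 8 lists, with summit position in kb from the Pgr start site on the horizontal axis and −log10 p on a log axis for each library, each stem being 1 peak. The tall ERα peaks stand at 38.0, 70.7 and 73.1 kb in all 4 ERα lists, PR peaks are low, and no list has a summit in the 50 kb before the gene.

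Weaker ERα regions varied between replicates. The 47 ERα peaks formed 27 regions when overlapping peaks of the 4 lists were merged, of which 18 had a peak in 1 library only, 2 in 2 libraries, 3 in 3 libraries and 4 in all 4. Over the whole genome 8.92% of ERα regions had a peak in all 4 lists. The 3 regions in 3 libraries lay at 51.5 kb (8951201 to 8951751; WT replicate 1 and both Y541S), at 65.0 kb (8964682 to 8965109; the same libraries) and at 93.6 kb (8993320 to 8993598; WT replicate 2 and both Y541S). Their best rank was 17342, with 6 to 14 reads at the summits. Of the regions in 1 library, the one nearest to the start site lay 0.508 kb after it in Y541S replicate 1 (8900236 to 8900482).

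No ERα region at Pgr separated the genotypes by presence. There were 0 regions in both Y541S and no WT list, a class that held 4.48% of ERα regions genome-wide, and 0 regions in both WT and no Y541S list, a class of 0.630%. At least 1 region of these classes was found within 50 kb of 49.4% and 11.5% of 21887 coding genes. Absence from a list means only that no peak passed the authors' threshold.

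The PR regions in all 4 PR lists stood at the start of Pgr, near its end and beyond it. Other PR regions lay within the gene and beyond it, and all PR peaks at Pgr had modest ranks. The region at the start site (8899744 to 8900597, summits 0.471 to 0.643 kb after the start) was in all 4 PR lists. Its −log10 p was 4.38 and 5.65 in the WT libraries and 19.7 and 13.4 in Y541S. The deposited fold was 3.03 and 3.87 in WT and 6.60 and 6.10 in Y541S, and the coverage 12, 11, 34 and 22 reads. Divided by the background of each library, coverage was 4.49 and 11.9 in WT (8.17 ± 5.22, SD, n = 2) and 13.9 and 16.3 in Y541S (15.1 ± 1.72). The genotypes did not overlap here, although the WT replicates differed from each other by more than the upper WT value did from the lower Y541S value. This order was common: 34.7% of the 38120 PR regions present in all 4 lists had both Y541S values above both WT values, and 0.197% had them below. For ERα the same shares were 24.8% and 8.17% of 19612 regions. Of the 4 ERα and 3 PR regions of this kind at Pgr, 1 each had both Y541S values higher, and the others overlapped.

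Near the end of the gene, 65.1 kb after the start site, a PR region (8964720 to 8965230) was in all 4 PR lists, with 17 and 10 reads in WT and 36 and 6 in Y541S. Replicate 2 of Y541S was the weakest, at rank 101347 of 101382, next to the end of its list, while replicate 1 of Y541S ranked 28168. The spread within the genotype was thus larger than the difference between their means.

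The strongest ERα region, beyond the end of the gene, also carried PR in all 4 PR lists (8970188 to 8971029). PR ranked only 23507 and 13875 there in WT and 34507 and 35023 in Y541S, with folds of 3.70 and 5.51, and 4.797 and 4.46. Coverage over background was 7.10 and 28.0 in WT and 17.99 and 15.6 in Y541S, so the Y541S values fell between those of the WT replicates. It was the only one of 41 regions merged over both receptors that had a peak in all 8 lists, a class of 3.76% of regions genome-wide. Counting peaks anywhere within 50 kb, 77.7% of coding genes had a peak in all 8 lists.

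A pair of further PR regions followed beyond the gene. One lay 3.19 kb after the end (8971607 to 8971990), between the 2 ERα regions, with PR peaks in WT replicate 1 and both Y541S libraries and 25, 44 and 19 reads. The other, at the ERα region 4.32 kb beyond the end (8972712 to 8973064), had PR peaks in replicate 1 of both genotypes and in neither replicate 2. Of the 3 PR regions within 5 kb beyond the gene, WT replicate 2 thus had a peak in 1.

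PR was also found at the ERα region 38.0 kb after the start (8937374 to 8938237) in 3 lists, all but WT replicate 1, with 8 to 15 reads, and in 3 lists at 104 kb (9003701 to 9004147). The only PR region that separated the genotypes by presence lay 6.40 kb after the start (8906072 to 8906342), with PR peaks in both Y541S and no WT list. Its −log10 p was 7.30 and 8.45 in Y541S replicates 1 and 2 and its coverage 19 and 16 reads, with ranks of 69563 and 40142. The 2 summits lay 4 bp apart. This class held 6.92% of PR regions, and 55.2% of coding genes had at least 1 such region. It was not present among the 20000 strongest peaks of each list.

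PR had 24 regions at Pgr, 15 of them in 1 library, 3 in 2, 3 in 3 and 3 in all 4, against 19.8% in all 4 genome-wide. None was in both WT and no Y541S list (0.558% of PR regions, with at least 1 near 9.63% of coding genes). The 3 regions in all 4 lists became 1 at −log10 p of at least 5, and 0 among the 20000 strongest peaks of each list. They also became 0 with coverage scaled to the shallowest library and a −log10 p of at least 3, 2 changes made together. Under these settings 3 ERα regions were in all 4 ERα lists.

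**Figure D2:**
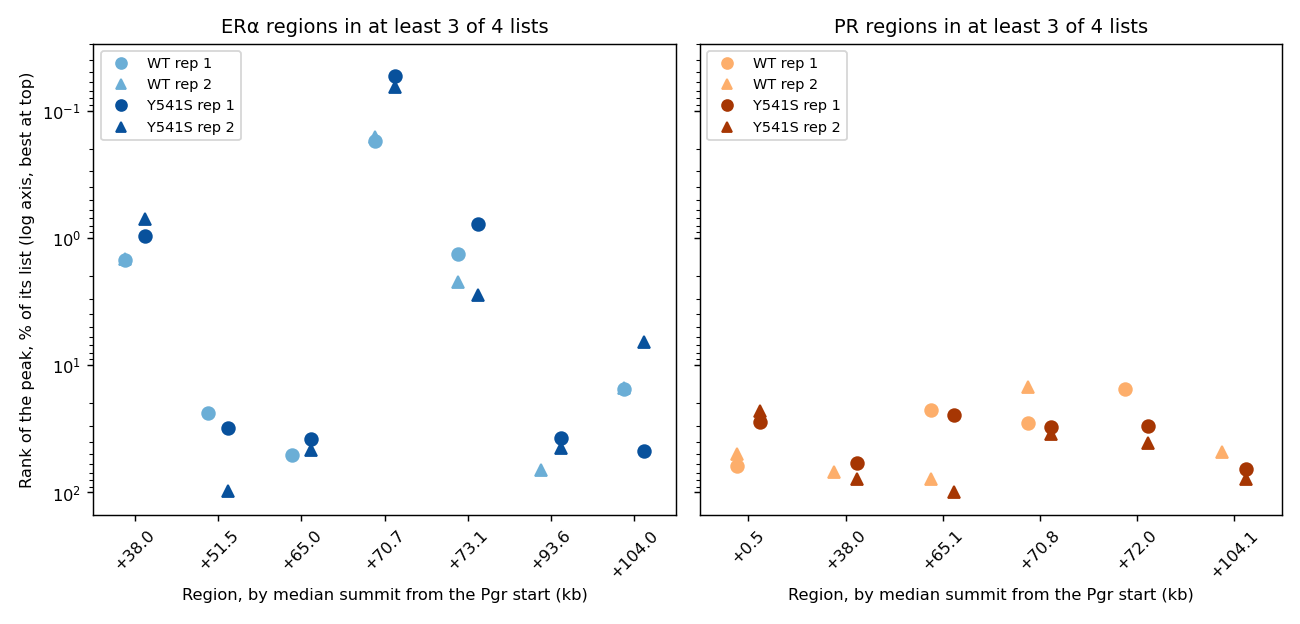
Rank of each peak as a percentage of its list (log axis, best at the top) in regions found in at least 3 of the 4 lists of a receptor, ordered by distance from the Pgr start site in kb; circles are replicate 1 and triangles replicate 2. ERα ranks reach 0.0533% at 70.7 kb, whereas no PR peak ranks above 14.8%.

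At the 3 strong ERα regions, summits of ERα lay closer together than those of PR. At the strongest region the 4 ERα summits fell within 18 bp, from 8970506 to 8970524, and the 4 PR summits within 305 bp, from 8970469 to 8970774. At the region 38.0 kb after the start the spread was 24 bp for 4 ERα summits and 277 bp for 3 PR summits. At the ERα region 4.32 kb beyond the end it was 29 bp for ERα and 74 bp for 2 PR summits. The weak region at 104 kb had the other order, with 146 bp for 4 ERα summits and 83 bp for 3 PR summits, and other weak ERα regions spread as widely (260 bp at 51.5 kb and 133 bp at 65.0 kb, 3 summits each). PR peaks held fewer reads than ERα peaks at the 3 strong regions, and their part in the spread was not tested. A spread like that of the strongest ERα region was usual at this rank, with a median of 21.5 bp over the 82 ERα regions ranked at least as high.

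**Figure D3:**
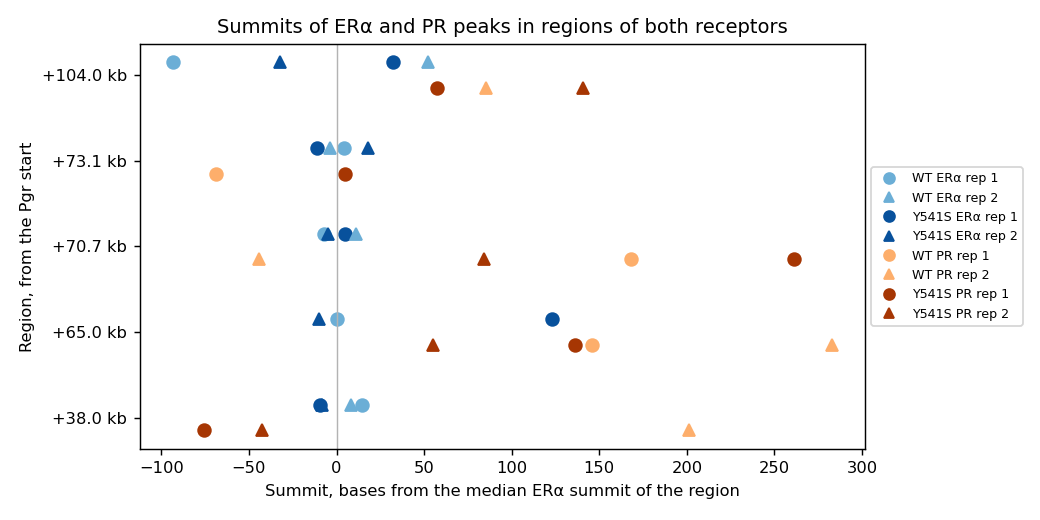
Position of each summit in bases from the median ERα summit of the region, for 5 regions with peaks of both receptors, given by their distance in kb from the Pgr start site; colours give receptor and genotype, circles replicate 1 and triangles replicate 2. ERα summits at 38.0, 70.7 and 73.1 kb lie within 18 to 29 bp, and PR summits scatter over 74 to 305 bp.

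Peaks were absent before the gene. None of the 8 lists had a summit in the 50 kb before the Pgr start site. The nearest summit upstream lay 61.8 to 67.5 kb before the start in the ERα lists and 61.9 to 142 kb in the PR lists, the farthest being those of both WT PR libraries. An upstream stretch free of summits in all 8 lists was found for 11.3% of 17492 coding genes with a known start and strand, and the median gene had 24 summits there over the 8 lists. The next coding gene in that direction, the ion channel gene Trpc6, ends 218 kb from Pgr.

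The number of peaks at Pgr did not separate the genotypes. ERα had 9 and 11 peaks in the WT lists of replicate 1 and replicate 2 (10 ± 1.41, SD, n = 2) and 16 and 11 in Y541S (13.5 ± 3.54). The difference of 3.5 (SE 2.69) was 7 within replicate 1 and 0 within replicate 2 (two-sided exact permutation p = 0.667, where 2 against 2 libraries cannot give less than 0.333). PR had 10 and 12 peaks in WT (11 ± 1.41) and 12 and 8 in Y541S (10 ± 2.83), a difference of −1 (SE 2.24) that was 2 within replicate 1 and −4 within replicate 2 (exact permutation p = 1). Per 10000 peaks of the list, ERα had 1.24 and 1.71 peaks at Pgr in WT and 1.496 and 1.04 in Y541S (exact permutation p = 0.667). PR had 1.21 and 1.28 in WT and 1.06 and 0.789 in Y541S, where both Y541S values were the lower (difference −0.32, SE 0.14, exact permutation p = 0.333, the smallest possible). The receptors did not differ detectably in number over the whole lists. PR minus ERα was −1.25 ± 2.63 peaks (SD over 4 pairs of the same genotype and replicate number, exact permutation p = 0.5, smallest possible 0.125). Among the 20000 strongest peaks of each list, ERα had 5 and 4 peaks in WT and 3 and 4 in Y541S, and PR 2 and 1, and 0 and 0. PR was then lower in 4 of 4 pairs, by −3.25 peaks (exact permutation p = 0.125, the smallest possible). With coverage scaled to the shallowest library and −log10 p of at least 3, PR minus ERα was instead 2.5 (exact permutation p = 0.375). There WT replicate 1 went the other way, with 5 ERα and 2 PR peaks. The genotype difference of PR minus that of ERα was −4.50 peaks (exact permutation p = 0.389 over 36 arrangements). The 6 p-values from the whole lists, with that of the overlap below, form 1 family of 7, with no Benjamini-Hochberg adjusted p under 0.778. Those among the 20000 strongest peaks and with scaled coverage were not adjusted. None of the 7 could pass 0.05 in a design of this size.

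**Figure D4:**
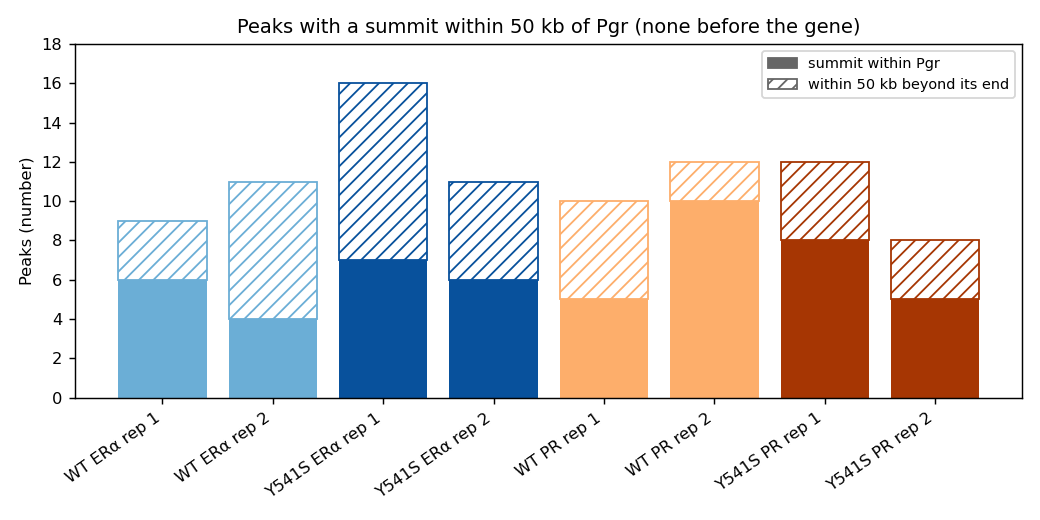
Number of peaks at Pgr in each library, with filled bars for summits within the gene and hatched bars for summits up to 50 kb beyond its end. Totals run from 8 to 16 and the genotypes overlap for both receptors.

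Between 4 and 7 ERα peaks of each list had summits within Pgr and 3 to 9 beyond it, against 5 to 10 and 2 to 5 for PR. WT PR replicate 2 had 10 of its 12 peaks within the gene, and 3 of the 12 had a −log10 p of at least 5. Of the ERα peaks, 3 of 9 and 4 of 11 in WT and 7 of 16 and 4 of 11 in Y541S overlapped PR in the library with the matching genotype and number, or 33.3% and 36.4%, and 43.8% and 36.4%. The difference of 5.21 percentage points (SE 3.99) was 10.4 within replicate 1 and 0 within replicate 2 (exact permutation p = 0.667). It ranged from −12.5 among the 20000 strongest peaks to 50 with scaled coverage, where each list held 4 or 5 ERα peaks at Pgr.

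Pgr stood near the head of the gene order for ERα and at or below the middle for PR. In the ERα lists, 0.822% and 0.685% of coding genes in WT and 0.379% and 0.461% in Y541S had a peak within 50 kb that ranked at least as high as the best one at Pgr. In the PR lists these shares were 50.5% and 59.2% in WT and 71.2% and 72.4% in Y541S. The best PR peak at Pgr ranked in the first 15.5% and 14.8% of the WT lists and 24.8% and 23.1% of the Y541S lists, and it was a different region in each: those at 72.0 and 70.8 kb in WT, and at 65.1 and 0.482 kb in Y541S. By the lowest-placed of its 4 best peaks, Pgr was matched or passed in all 4 lists by 0.548% of coding genes for ERα and by 58.4% for PR. The number of peaks was unremarkable, with 38.9% and 21.1% of coding genes having at least as many ERα peaks in WT and 17.8% and 40.7% in Y541S. For PR the shares were 37.0% and 32.8% in WT and 40.1% and 55.9% in Y541S. Neighbouring genes share peaks, so genes are not independent here. The best ERα peak within 50 kb of Arhgap42 was the same one as at Pgr. Its best PR peaks, outside the window of Pgr, ranked in the first 1.23% to 2.07% of the PR lists.

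Strong ERα binding with weak PR was not peculiar to Pgr. Of the 82 ERα regions present in all 4 lists and ranked at least as high as the one beyond Pgr, 69 (84.1%) had a PR peak in all 4 PR lists and 1 had none. At 46 of those 69, the Pgr region included, PR ranked at least as high as at Pgr in its lowest-placed list (34.5%), and the median of that rank was 27.7%.

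Among other genes of estrogen and progesterone signalling, only Greb1, an estrogen-induced growth regulator gene, had a better ERα peak in any list. Its best ERα peak ranked in the first 0.0827% and 0.0558% of the WT lists and 0.0720% and 0.0322% of the Y541S lists, so Pgr was ahead of it in Y541S replicate 1 alone. The best ERα peak near Esr1 stood at 1.46% and 6.29% in WT and 1.39% and 2.60% in Y541S. For PR both genes were ahead of Pgr. Greb1 reached 0.845% and 1.12% in WT and 2.07% and 0.854% in Y541S, and Esr1 0.425%, 1.97%, 1.151% and 1.34%. Of 24 such genes, 13 had a better PR peak than Pgr in all 4 PR lists and 0 had a better ERα peak in all 4 ERα lists. Measured against the lowest-placed best peak of Pgr, which is a looser rule, the shares over all coding genes were 58.4% for PR and 0.548% for ERα. Since the rules differ, these shares cannot tell whether the counts are particular to the list.

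**Figure D5:**
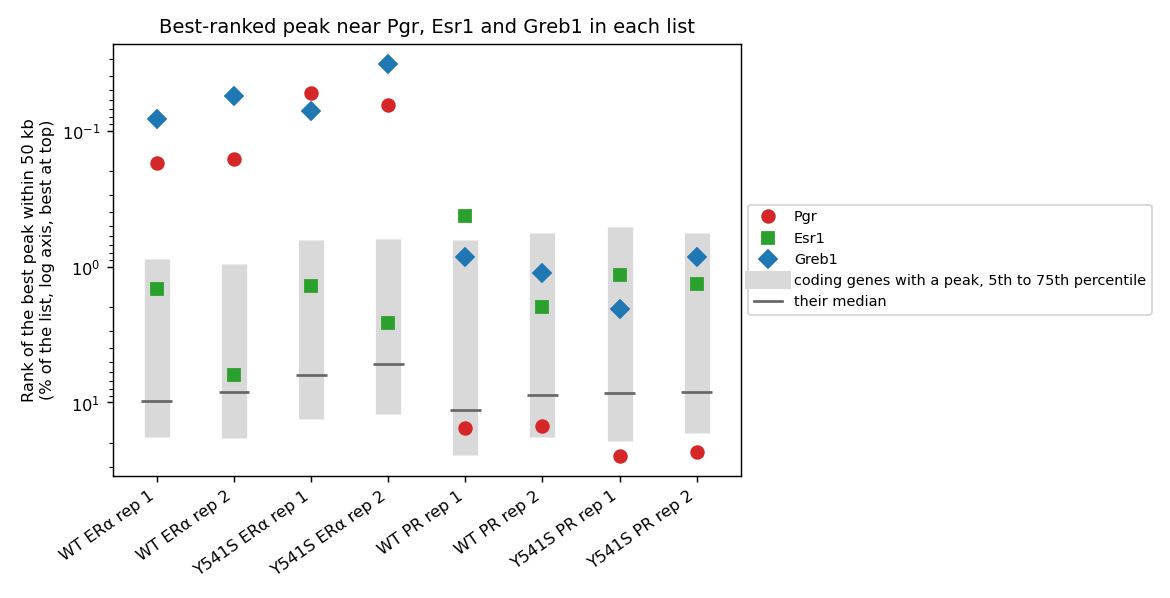
Rank of the best peak within 50 kb of Pgr, Esr1 and Greb1 in each list, as a percentage of the list (log axis, best at the top), with grey bars for the 5th to 75th percentile of coding genes that have a peak and a line for their median. Pgr lies above the bar in all 4 ERα lists and below the median in all 4 PR lists.

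ERα regions in all 4 lists were found at 17 of these 24 genes (70.8%, against 72.4% of coding genes), among them Greb1 (13), the coactivator gene Ncoa3 (7), Esr1 (6) and the chaperone gene Fkbp5 (5), compared with 4 at Pgr. At least 4 such regions were found at 26.4% of coding genes. Gata3, Tfap2c, Foxa1, Wnt4, Areg, Calcr and Cited1 had none. PR regions in all 4 lists were found at 21 of the 24 (87.5%, against 78.1% of coding genes), among them Fkbp5 (14), and Ncoa2 and Esr1 (13 each), and Calcr, Id4 and Cited1 had none. The median was 6.5 PR regions per gene of the list and 3 over all coding genes, so Pgr with 3 was at the median of coding genes, and 56.7% of them had at least as many. ERα regions in both Y541S and no WT list were found at 10 of the 24 genes (41.7%, against 49.4% of coding genes), and PR regions of that class at 18 (75%, against 55.2%). Windows were wider at longer genes, for which no correction was made.

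The genes most like Pgr in their best ranks over the 8 lists were Ccr10, a chemokine receptor gene, and its neighbour Cntnap1, which share peaks on chromosome 11. Their mean absolute differences from Pgr in log10 rank were 0.0853 and 0.0871. They were followed by Cd200r1 (0.190), Eif4g2 (0.197) and Lpar1 (0.215), among 17007 genes compared. Ccr10 had its best ERα peak in the first 0.197% and 0.146% of the WT lists and 0.0589% and 0.0417% of the Y541S lists, and its best PR peak between 12.1% and 27.4%.

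The lists held 64488 to 113695 peaks. The background coverage recovered from them, a measure of depth, ran from 0.927 to 2.68 reads, both extremes being WT PR libraries (replicate 2 and replicate 1), and was higher in replicate 1 than in replicate 2 of every group. This touches the comparison of PR coverage at the start of Pgr, and the part of depth in it was not tested. The names of the deposited lists carry one code in replicate 1 and another in replicate 2, which is why differences within each replicate number are given above.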

How the data were processed

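ERα and PR ChIP-seq peak lists of 8 libraries were used, 1 list per library without pooling. Coordinates are mm10, the build named in the deposited data's labels, per the submitters' processing notes; aligner, peak caller, input use and versions are not given in the sources used here. Per the labels' protocols, 30 µg of chromatin sheared to 300 to 500 bp was precipitated with 4 µg of antibody. Each deposited peak has the authors' whole-number score, a fold enrichment (a ratio of summit coverage to local expectation, not scaled between libraries), a −log10 p of at least 2, a −log10 q, and a summit offset in another unit, bases, also deposited.

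Summits were taken as start plus offset. Ranks follow −log10 p within a list. Peaks of 1 receptor overlapping by 1 bp were merged into regions, placed by their median summit. Summit coverage and expectation were recovered by assuming a Poisson tail and a fold with 1 added to both terms, matching −log10 p within 1e-04 for at least 99.9956% of peaks per list; the 0.001 quantile of the expectation was taken as background. Coverage over background was added after the values had been seen. The recovery and the region classes were tested on simulated data. Intervals were not computed, and peaks carry no library totals.

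Genes and promoters came from RefSeq tables of GRCm38.p6, giving 21887 coding genes. Genotype was compared with two-sided exact permutation tests over libraries, without pairing by replicate number. Where nothing tells the replicates' animals apart, these p-values measure only the spread between libraries. Alternatives were −log10 q of at least 1.3, −log10 p of at least 5, the 20000 strongest peaks, coverage scaled to the shallowest library (−log10 p of at least 3), 100 kb, stricter overlap, a replicate block and leaving out libraries. Regions in at least 3 lists or specific to 1 genotype, genes in the window, Esr1, Greb1, the 5 genes most like Pgr and the extremes of a list of 24 genes were named by rule, except that 1 gene of the list is not reported here. The members and lists were chosen with earlier results of these data known. Python 3.11.15, numpy 2.4.6, pandas 2.3.3, scipy 1.17.1 and matplotlib 3.10.9 were used.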

Additional observations from a re-analysis of the deposited data

How the results depend on the processing

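The direction of most differences in peak number at Pgr depended on the settings, with no permutation p under 0.125 in any. The mean of PR peaks per 10000 was lower in Y541S in all settings run, by −0.75 (20000 strongest peaks) to −0.0221 (−log10 p of at least 5). The genotypes overlapped in it at −log10 q of at least 1.3, at −log10 p of at least 5, with scaled coverage and within 100 kb. In those settings the mean number of PR peaks was higher in Y541S. At −log10 q of at least 1.3, Y541S minus WT became 0.161 ERα peaks per 10000, 1 PR peak, and −3.75 points for ERα peaks overlapping PR. At −log10 p of at least 5 it became 0.0484 ERα peaks per 10000 and 3 PR peaks, PR regions in all 4 lists fell to 1, and the genotype difference of PR minus that of ERα was 1. Among the 20000 strongest peaks it was −1 ERα peak and −12.5 points of overlap, PR minus ERα was −3.25, with 0 PR regions in all 4 lists and 0 in Y541S only. With scaled coverage it was −0.5 ERα and 0.5 PR peaks and 50 points of overlap, PR minus ERα was 2.5, the difference between receptors was 1, and 0 PR regions were in all 4 lists. Within 100 kb it was 1 PR peak, with 1 ERα and 2 PR regions in Y541S only. Requiring an overlap of 0.5 of the shorter peak gave the same numbers of regions in each class and 0.663 points of ERα peaks overlapping PR.

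Leaving out 1 library gave Y541S minus WT of 1 to 6 ERα peaks, −3 to 1 PR peaks (0 without WT replicate 2, 1 without Y541S replicate 2), −0.437 to 0.0287 ERα and −0.455 to −0.189 PR peaks per 10000, and 1.52 to 8.90 points of overlap. It turned to 0.0287 and 0.0234 ERα peaks per 10000 without WT or Y541S replicate 2. PR minus ERα was −2 to −0.333 and the difference between receptors −7 to −2. Regions in all lists numbered 4 to 6 for ERα and 3 to 5 for PR, in Y541S only 1 to 8 and 2 to 4, and in WT only 0 to 6 and 0 to 6. These classes then rest on 1 library of a genotype.

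Replicate numbers are shared between groups, but the labels do not say that they mark shared animals, and 2 pairs cannot show it. With a replicate block the ERα difference of 3.5 peaks and the PR difference of −1 peak had exact permutation p-values of 1, and the difference of −0.322 PR peaks per 10000 had 0.5. The block left the other differences in place and brought no p under 0.5. For genotype within a receptor it allows only 4 arrangements, so 0.5 was the smallest possible p there. Peaks of 5 to 7 reads at the summit were listed at Pgr in libraries of replicate 2 only, where background coverage was lower. The part of depth in the weaker regions was not tested.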
